A study of Mus musculus with 10 samples.

Results

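Delta cells are the somatostatin-secreting endocrine cells of the pancreatic islet. They were chosen by their own transcripts, as cells in which Sst made up at least 0.5% of all UMIs (unique molecular identifiers, which count captured RNA molecules once each), with at least 1 Chga UMI, less than 1% Gcg, less than 1% Ins1 and Ins2 together, less than 0.3% Ghrl and no more than 1 Col3a1 UMI. Of 29753 cells with at least 200 detected genes in the libraries made with v2 chemistry at E14.5 and E17.5, 182 passed this rule, 19 in the E14.5 library, 146 in the E17.5 library and 17 in the Fev-Cre E14.5 library. The study profiled single cells of the developing mouse pancreas by droplet 3' RNA sequencing. The E14.5 and E17.5 libraries came from pooled pancreata of Swiss Webster embryos, each pool being a single litter processed on its own day, from which CD140a+ (PDGFRA+) mesenchymal cells had been removed by flow sorting. The E17.5 suspension was loaded in 2 wells, which were summed here. The Fev-Cre E14.5 library came from a pool of 1 litter of Fev-Cre; ROSA26mTmG embryos kept on a C57BL/6J background, in which a Cre driven by Fev switches a membrane tdTomato reporter to membrane GFP, and sorted GFP+ cells were loaded together with GFP- tdTomato+ cells. Fev is known as a gene of endocrine progenitors, so that sort sets how often each class was seen. Alpha cells (Gcg at least 1%, 100, 252 and 547 cells) and beta cells (Ins1 and Ins2 at least 1%, 229, 743 and 398 cells) of the same libraries, with every other hormone below its threshold, served for comparison.

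Delta cells arise from endocrine progenitors that transiently express Neurog3, as alpha and beta cells do. They release somatostatin, which acts on inhibitory Gi-coupled receptors on neighbouring alpha and beta cells and restrains glucagon and insulin release. Hhex, a homeobox repressor, is needed to maintain the delta fate in the mouse. The hormone genes of the 3 classes (Sst, Gcg, Ins1, Ins2, Ghrl) and the Chga and Col3a1 gates chose the cells, so these 7 genes are described only and were left out of all tests. Class totals leave them out too, except for the reporter levels, while shares of a single cell's UMIs are of all its UMIs.

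The 5 marker genes given for these cells were Sst (chr16:23889573-23890958, minus strand), Hhex (chr19:37434810-37440731, plus strand), Rbp4 (chr19:38116629-38125281, minus strand), Arg1 (chr10:24915221-24927484, minus strand) and Fam159b, with positions from GENCODE M21 on GRCm38. The Sst promoter is known for a cAMP response element (CRE, TGACGTCA), a motif bound by the factor CREB. A search of the 250 bases before each RefSeq start on GRCm38.p6, on both strands, found this motif in the Sst window from 48 to 41 bases before the start. GENCODE starts the Sst gene further upstream, so this stretch lies inside the gene interval given above, and the full Sst window also held TAAT. The Hhex window was shortened to end before the GENCODE start. Capitals mark TGACGTCA and the homeodomain core TAAT (or its reverse complement) in the stretches shown here. For Sst they are 30 bases around the CRE (chr16:23890874-23890903, minus strand). Hhex (chr19:37434591-37434809, plus strand, 219 bases) and Ptprz1 (chr6:22875252-22875501, plus strand, 250 bases), among the genes highest in delta cells relative to both other classes, are shown beside it.
Sst: gcctccttggcTGACGTCAgagagagagtt
Hhex: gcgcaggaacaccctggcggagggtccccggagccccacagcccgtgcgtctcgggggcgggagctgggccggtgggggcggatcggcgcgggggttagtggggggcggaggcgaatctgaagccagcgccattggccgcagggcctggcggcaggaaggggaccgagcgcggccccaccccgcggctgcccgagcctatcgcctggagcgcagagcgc
Ptprz1: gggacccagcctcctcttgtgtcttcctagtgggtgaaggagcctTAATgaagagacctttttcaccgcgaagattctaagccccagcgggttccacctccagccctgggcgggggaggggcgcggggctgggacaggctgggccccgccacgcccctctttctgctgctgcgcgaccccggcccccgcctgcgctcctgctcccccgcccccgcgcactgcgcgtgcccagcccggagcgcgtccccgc
The CRE was in the windows of 1.77% of 27025 RefSeq genes and TAAT in those of 58.5%. Neither stretch of Hhex or Ptprz1 held the CRE, and Ptprz1 held 1 TAAT. These matches describe letters in the windows and are not evidence of binding. Windows for Arg1, Fam159b, Ppp1r17, Cd24a and Gap43 were not analysed here.

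Delta cells had fewer UMIs per cell than alpha and beta cells in each library. After the 200-gene minimum, 9086, 12770 and 7897 barcodes remained in the E14.5, E17.5 and Fev-Cre libraries, the order used for values except where a stage comparison states another. Median UMIs per delta cell were 4661, 8756 and 7054, against 6274, 11524 and 8903 in alpha cells and 6945, 21334 and 8964 in beta cells. No delta barcode was shared between libraries. The doublet caller Scrublet marked 13.7% of E14.5 barcodes, 0.606% and 3.01% in the E17.5 wells and 5.12% in the Fev-Cre library, among them 3, 3 and 2 delta cells, which were kept. In the E17.5 library 171 cells passed the Sst threshold, and of those outside the class 9 held insulin, 2 Gcg and 2 Ghrl above threshold. The class totals per library are sums over cells, so they give the level in the class and not in a single cell.

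Delta cells made up a larger share of the hormone cells at E17.5 than at E14.5 in the Swiss Webster libraries. They were 19 of 409 hormone cells (alpha, beta, delta and epsilon cells by rule) at E14.5, or 4.65% (exact binomial 95% interval 2.82 to 7.16), and 146 of 1218 at E17.5, or 11.99% (10.2 to 13.9). The E17.5 wells gave 12.6% and 11.4%. In the Fev-Cre library, where the sort fixes the mix, they were 17 of 999, or 1.70% (0.994 to 2.71). No delta cell was found among 251 hormone cells of the E12.5 v2 library, with an exact binomial upper bound of 1.46%. In older v1 libraries the counts were 0 of 47 at E12.5, 5 of 81 and 1 of 65 in the E14.5 samples and 30 of 113 (26.5%) at E17.5. The intervals cover counting error only. Swiss Webster v2 libraries are a single pool per stage, each of its own day, so there stage cannot be told apart from litter and day. The v1 libraries with 0 of 47, 1 of 65 and 30 of 113 were collected together and differ in stage and litter.

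**Figure D1:**
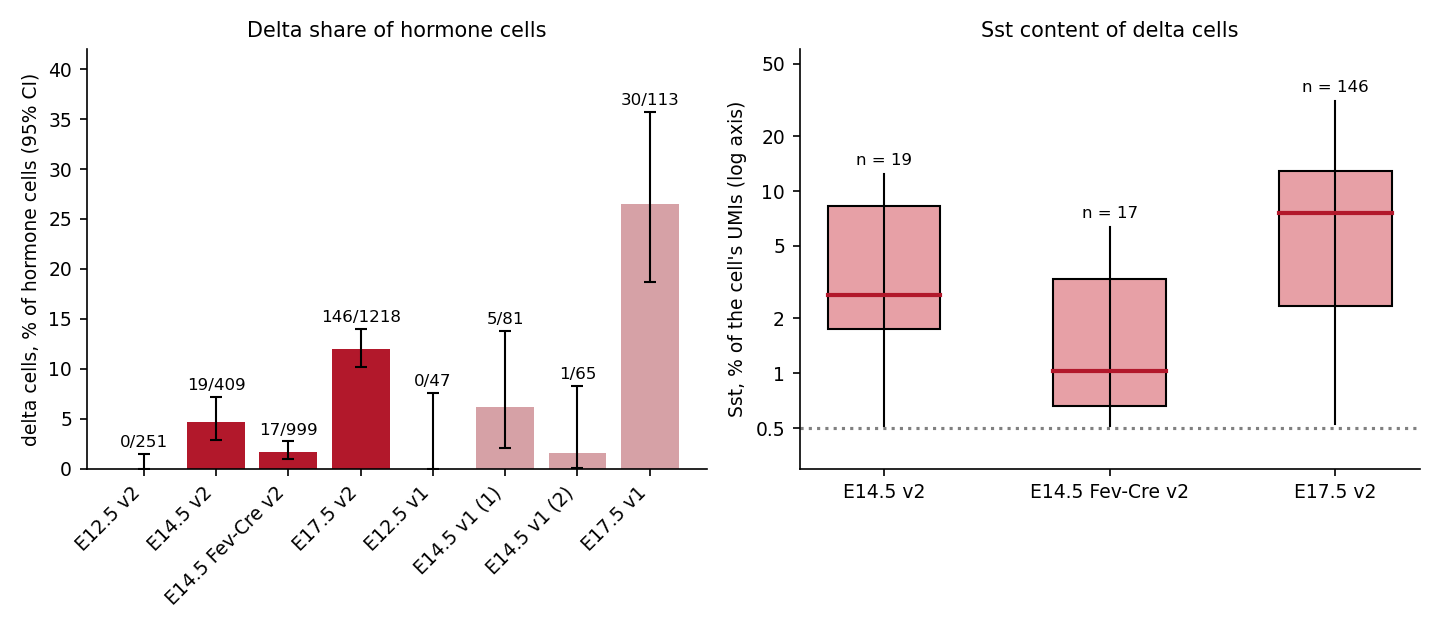
Left, delta cells as a percentage of hormone cells in each library, with exact binomial 95% intervals and the counts above each bar (dark bars, v2 chemistry; light bars, v1 chemistry). Right, Sst as a percentage of each delta cell's UMIs on a log axis (box, quartiles; line, median; whisker, lowest to highest; dotted line, the 0.5% threshold). The E17.5 libraries have the highest bars, and the E17.5 median of 7.57% lies above the medians of 2.69% and 1.03% at E14.5.

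Within the class, Sst content spanned a wide range, which is a description of the gene that chose the cells. It ran from 0.513 to 12.47% of a cell's UMIs at E14.5 (median 2.69%), from 0.529 to 31.4% at E17.5 (median 7.57%) and from 0.511 to 6.38% in the Fev-Cre library (median 1.03%). At least 10% of UMIs were Sst in 4 cells at E14.5, in 51 at E17.5 and in none of the 17 Fev-Cre cells. Of the Fev-Cre cells, 8 lay below 1%, close to the threshold. The highest values just outside the threshold were 0.437, 0.490 and 0.480%, and 6, 8 and 14 cells that passed every other gate lay between 0.2 and 0.5%.

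All delta cells of the Fev-Cre library carried the reporter. eGFP UMIs were found in 17 of 17 delta cells (100%, exact binomial 95% interval 80.5 to 100), at 2200 CPM over the class (UMI counts scaled to a total of 1000000). Unlike the other CPM, the reporter CPM use totals that hold the gate genes. The shares were 546 of 547 alpha cells, 397 of 398 beta cells and 33 of 37 epsilon cells, at 1718, 1809 and 1227 CPM. tdTomato UMIs were found in 0 of 17 delta cells (exact binomial upper bound 19.5%), but tdTomato was rarely detected in any class, in 13 of 547 alpha, 15 of 398 beta, 77 of 526 acinar and 232 of 2300 non-epithelial cells (14.6% and 10.1% of the last pair), so its absence from 17 cells is not informative. Cells not expected to carry the label gave the background, whose source was not tested. When every cell was thinned to 3000 UMIs, eGFP was seen in 4.56% of 526 acinar cells and 5.87% of 2300 non-epithelial cells, at 20.1 and 23.8 CPM (27.0% and 14.2% unthinned, median depths 17078 and 6318 UMIs), and still in 17 of 17 delta cells. GFP+ cells were sorted into this library, so the share describes the cells loaded.

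Of 10376 genes tested, 572 (5.51%) differed between delta and alpha cells and 782 (7.54%) between delta and beta cells at a Benjamini-Hochberg adjusted p below 0.05 and at least 2-fold (edgeR quasi-likelihood test on UMI sums, library as a block, n = 3 libraries per class). Against alpha cells 293 genes were higher in delta (2.82%) and 279 lower (2.69%). Against beta cells 391 were higher and 391 lower (3.77% each). Delta cells were higher than both other classes in 158 genes (1.52%) and lower than both in 119 (1.15%), 143 and 98 of which moved the same way in every library. These counts depended on the E17.5 library, which holds most delta cells. Without it 189 genes were called against alpha, 214 against beta, 45 higher than both and 33 lower than both. The median log2 fold over all genes tested was -0.04 in each comparison.

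**Figure D2:**
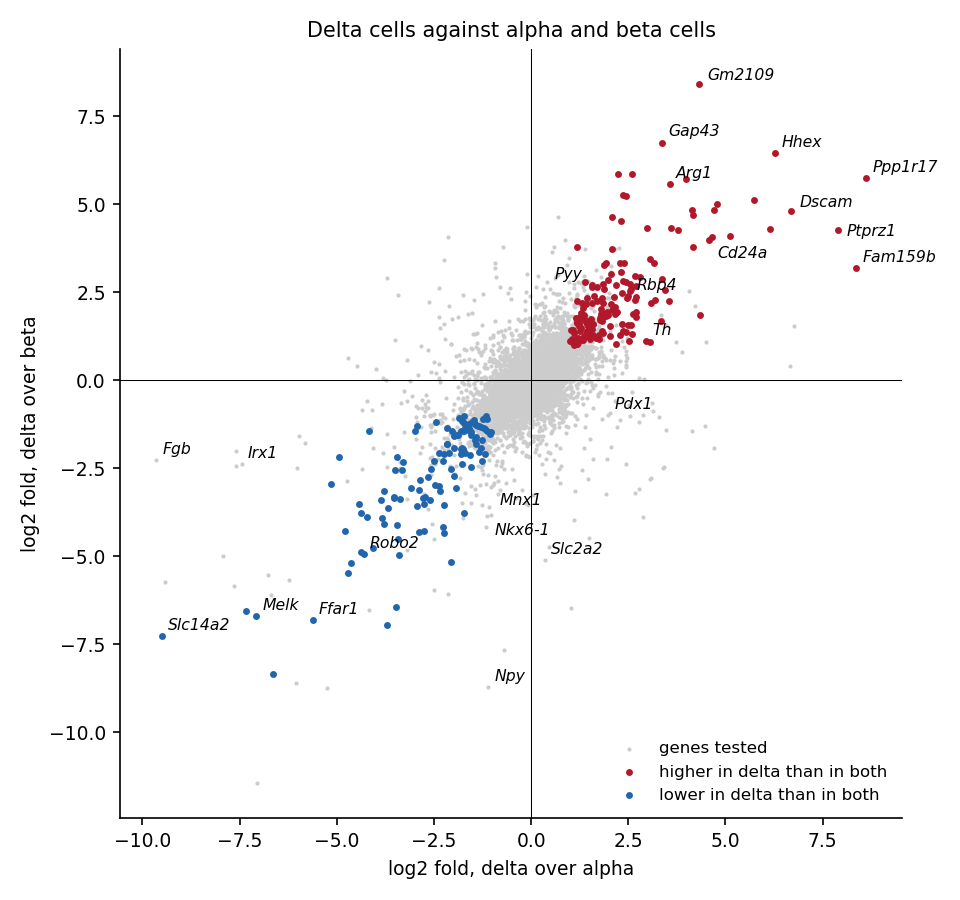
Each point is a gene, placed by its log2 fold in delta over alpha cells (horizontal) and over beta cells (vertical) from the fit over 3 libraries. Red points were higher in delta cells than in both classes (158 genes) and blue points lower than in both (119 genes), and Hhex, Ppp1r17, Fam159b and Gap43 lie at the upper right.

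The homeobox gene Hhex separated the delta cells from both classes. Hhex stood at 977, 1255 and 1724 CPM in delta cells, against 15.0, 27.2 and 10.2 in alpha and 25.01, 15.2 and 6.65 in beta cells. Every delta library was far above every alpha and beta library. The log2 fold was 6.28 ± 0.35 (approximate SE) over alpha cells (adjusted p = 8.30e-09) and 6.45 ± 0.35 over beta cells (adjusted p = 2.91e-09). A Hhex UMI was present in 19, 144 and 17 of the 19, 146 and 17 delta cells. With cells thinned to 3000 UMIs, it was seen in 89.5, 87.7 and 100% of delta cells, 5.00, 2.38 and 2.19% of alpha cells and 3.49, 1.75 and 1.76% of beta cells. Hhex and several genes named next were given as delta markers with results of these samples known, so their direction here is not independent evidence.

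Secreted and enzymatic marker genes followed. Rbp4, the plasma carrier of retinol, was abundant in delta cells at 19701, 19934 and 16371 CPM and lower in alpha cells at 4436, 3184 and 2708 and in beta cells at 2669, 1662 and 3318. The classes did not overlap, and the delta level was 5.42-fold the alpha and 6.98-fold the beta level (log2 2.44 ± 0.20 and 2.80 ± 0.20, adjusted p = 4.97e-07 and 6.53e-08). Arg1, the cytosolic arginase, was at 377, 329.5 and 562 in delta, 28.6, 27.2 and 60.3 in alpha and 4.76, 2.85 and 24.3 in beta cells. It was 11.9-fold and 47.9-fold higher in delta cells (adjusted p = 4.70e-07 and 3.57e-09). Fam159b, a membrane protein gene, was at 288, 388 and 96.2 in delta, 0, 1.1 and 0.408 in alpha and 32.8, 35.9 and 11.9 in beta cells, so its contrast with alpha cells was far wider than that with beta cells. Its log2 fold was 8.37 ± 0.31 over alpha and 3.18 ± 0.19 over beta cells (adjusted p = 3.21e-11 and 9.49e-09).

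The 15 genes with the widest margin over both classes had varied roles. Ppp1r17, an inhibitor of protein phosphatase known from cerebellar Purkinje cells, was at 16.02, 259 and 22.2 CPM in delta cells, and the E17.5 value stood far above both E14.5 values. Alpha cells held 2 Ppp1r17 UMIs in all, and the pooled delta level was 919-fold (95% counting interval 253 to 7618) the alpha level. Pooling weights each library by its UMIs, and without E17.5 the ratio was 54.2-fold (95% counting interval 8.88 to 569), from 5 delta and 2 alpha UMIs. In beta cells it was at 0, 3.67 and 1.74, with a log2 difference of 5.75 ± 0.41 (adjusted p = 6.53e-08). Ppp1r14c, another phosphatase inhibitor, was at 112, 102 and 185 in delta, 8.18, 4.04 and 11.6 in alpha and 4.76, 3.16 and 5.5 in beta cells. The log2 folds were 4.15 ± 0.28 and 4.85 ± 0.27 (adjusted p = 6.49e-08 and 3.57e-09), with no overlap between classes. Cer1, a secreted antagonist of Nodal and BMP ligands, was at 80.1, 26.8 and 66.6 in delta, 4.09, 0.367 and 2.04 in alpha and 5.36, 0.917 and 4.92 in beta cells. Stc1, which encodes the glycoprotein stanniocalcin, was at 8.01, 37.3 and 7.4, 0, 1.84 and 1.22 and 0, 1.02 and 1.16. In the delta sums 1 UMI is worth 8.01 CPM at E14.5 and 7.4 CPM in the Fev-Cre library. Stc1 therefore rests on 1 UMI in each of these, and most of its delta UMIs came from E17.5. The log2 folds over alpha and beta cells were 5.13 ± 0.49 and 4.11 ± 0.41 for Cer1 (adjusted p = 3.13e-06 and 3.54e-06), and 4.18 ± 0.61 and 4.69 ± 0.57 for Stc1 (adjusted p = 0.000244 and 3.01e-05).

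Other genes with a wide margin were, like Stc1, low in absolute level. Slc16a7, a monocarboxylate transporter, was at 16.02, 14.2 and 22.2 CPM in delta, 1.36, 0.367 and 0.408 in alpha and 1.19, 0.408 and 0 in beta cells. Rtp4, an interferon-inducible receptor chaperone, was at 8.01, 25.3 and 29.6, 0, 0.735 and 0.204 and 0, 0.815 and 0.289, and alpha cells held 3 UMIs of it in all. The predicted gene Gm2109 had 2, 19 and 2 UMIs in delta cells and 0 in beta cells, which makes it at least 71.6-fold higher in delta than in beta cells (floor of 3 UMIs over the class), or 26.3-fold without E17.5. Olfml3, an extracellular matrix protein, was at 8.01, 8.2 and 59.2, 1.36, 0 and 2.45 and 2.38, 0.102 and 3.47, with its Fev-Cre value well above the other two delta values. Each of these 4 genes was called against both classes.

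**Figure D3:**
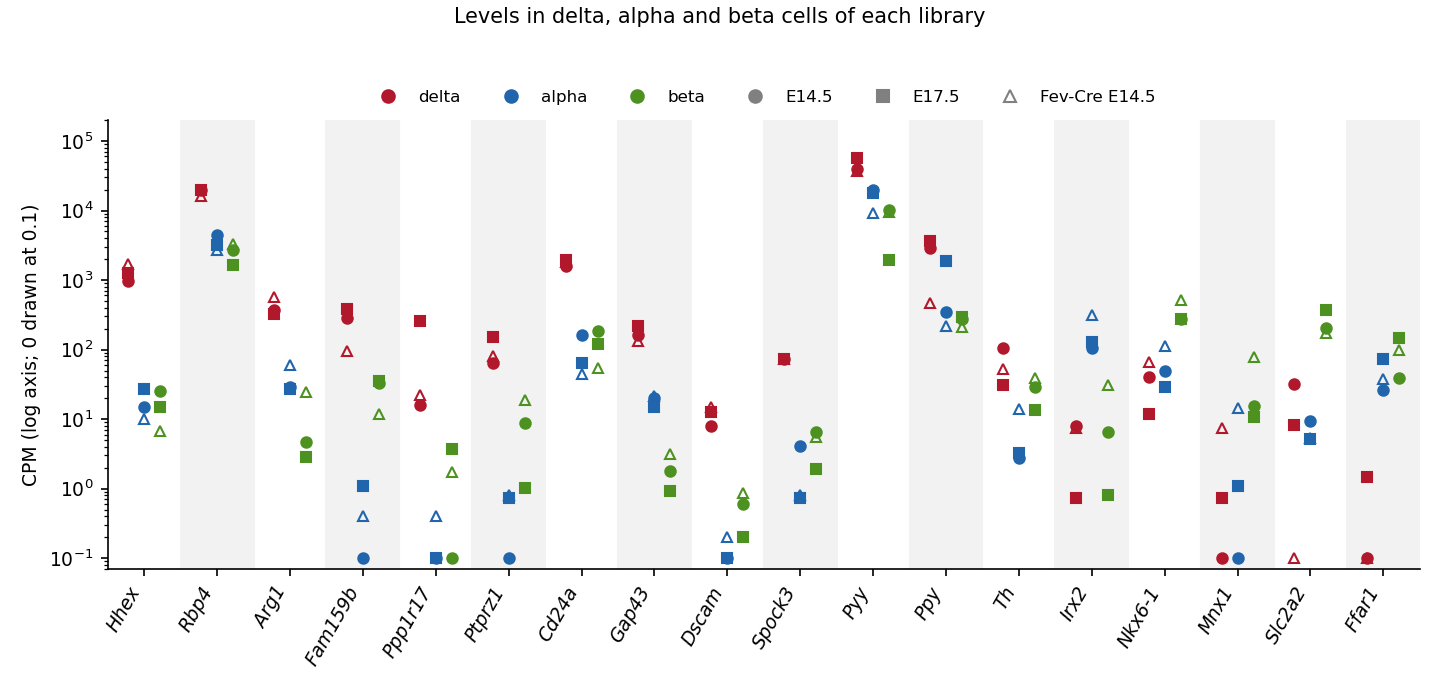
CPM (log axis, values of 0 drawn at 0.1) of 18 genes in delta, alpha and beta cells, one symbol per library. Hhex in delta cells lies between 977 and 1724, above every alpha and beta library, while Irx2 in delta cells lies below every alpha library and Slc2a2 is highest in beta cells.

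Among adhesion and growth cone genes of the nervous system, 7 of 22 tested were higher and 1 lower than in alpha cells (2.82% of all genes tested were higher), and 9 were higher and 2 lower than in beta cells (3.77% higher), with median log2 folds of 0.82 and 0.46 beside -0.04 for all genes. Cd24a, a heavily glycosylated surface protein, was at 1610, 1917 and 1812 CPM in delta, 161, 63.2 and 44.4 in alpha and 183, 121 and 55.0 in beta cells. It was 24.0-fold and 15.95-fold higher in delta cells (adjusted p = 6.49e-08 and 8.45e-08), with no overlap. Gap43, a growth cone phosphoprotein, was at 160.2, 219 and 133, 20.5, 15.1 and 21.8 and 1.79, 0.917 and 3.18. Its log2 fold was 3.36 ± 0.29 over alpha and 6.75 ± 0.36 over beta cells (adjusted p = 1.16e-06 and 2.91e-09). Ptprz1, a receptor tyrosine phosphatase whose promoter is shown above, was at 64.1, 151 and 81.4, 0, 0.735 and 0.815 and 8.93, 1.02 and 18.8. Its log2 fold was 7.89 ± 0.86 over alpha and 4.28 ± 0.63 over beta cells (adjusted p = 1.38e-05 and 0.000212). Cadm1, an immunoglobulin-family adhesion molecule, was at 112, 131 and 66.6 in delta, 60, 51.0 and 29.8 in alpha and 33.3, 26.9 and 23.1 in beta cells.

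Dscam, Spock3 and Pcdh15 are outside that list. Dscam, a homophilic adhesion molecule of axons, was at 8.01, 12.7 and 14.8 CPM in delta cells, and alpha cells held 1 UMI in all, a pooled difference of 104-fold (95% counting interval 16.7 to 4328), or 65.1-fold (95% counting interval 5.22 to 3416) without E17.5. Beta cells held it at 0.595, 0.204 and 0.868 (log2 4.82 ± 0.72, adjusted p = 0.000228). Spock3, a matrix proteoglycan, was nearly equal in the delta libraries at 72.1, 73.8 and 74.0, against 4.09, 0.735 and 0.815 in alpha and 6.55, 1.94 and 5.5 in beta cells (log2 6.14 ± 0.51 and 4.30 ± 0.40, adjusted p = 6.72e-07 and 1.78e-06). Pcdh15, a protocadherin, was at 40.1, 61.1 and 44.4 in delta and 2.38, 1.02 and 1.45 in beta cells (adjusted p = 1.38e-07). Of the list members counted above, Ly6h, a modulator of nicotinic receptors, and Stmn3, a microtubule regulator, were called in both comparisons but not when the E17.5 library was left out. Ly6h was at 64.1, 248 and 22.2 in delta and 31.6, 13.6 and 57.3 in beta cells, and without E17.5 its log2 fold over beta cells turned to -0.14 (adjusted p = 0.935). Stmn3 was at 0, 38.0 and 14.8, and without E17.5 its log2 folds turned to -0.58 (adjusted p = 0.872) over alpha and -0.39 (adjusted p = 0.913) over beta cells.

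The axon guidance receptors Robo1 and Robo2 went the other way. Robo1 had no UMI in any delta cell and stood at 8.34, 16.6 and 12.7 CPM in beta cells, at least 7.89-fold above the floor for delta cells (adjusted p = 0.00111). Without E17.5 the bound was 0.979, which bounds no difference (adjusted p = 0.387). Robo2 had 3 UMIs in delta cells, all at E17.5, and stood at 5.45, 61.7 and 3.67 in alpha and 16.1, 44.8 and 16.2 in beta cells. The pooled alpha level was 12.1-fold (95% counting interval 4.09 to 59.3) and the pooled beta level 18.7-fold (95% counting interval 6.36 to 90.9) the delta level, and in E17.5 alone they were 27.6-fold (95% counting interval 9.28 to 135) and 20.1-fold (95% counting interval 6.82 to 97.6). Without the E17.5 library delta cells held no Robo2 UMI and both calls were lost (adjusted p = 0.619 and 0.212), with bounds of 0.338-fold and 1.40-fold.

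Several ion channel subunits were higher in delta cells. Of 26 tested, 6 were higher and 1 lower than in alpha cells, and likewise 6 and 1 against beta cells, with medians of -0.04 and 0.16 (over all genes tested, 2.82% were higher and 2.69% lower than in alpha cells, and 3.77% each way against beta cells). Cacna2d2, an auxiliary subunit of voltage-gated calcium channels, was at 8.01, 18.6 and 22.2 CPM in delta, 1.36, 1.47 and 0.408 in alpha and 0, 0.408 and 0 in beta cells (log2 3.99 ± 0.74 and 5.72 ± 0.74, adjusted p = 0.00208 and 6.20e-05). The delta values of Cacna2d2 at E14.5 and in the Fev-Cre library rest on 1 and 3 UMIs. Its relative Cacna2d3, outside the list, was at 8.01, 5.96 and 14.8, 1.36, 0.367 and 0 and 0, 0.204 and 0.289 and was also called against both. Gria2, an AMPA-type glutamate receptor subunit, was at 32.0, 101 and 59.2 in delta and 65.5, 96.2 and 81.3 in alpha cells, which overlapped, and at 1.19, 3.26 and 6.07 in beta cells, which did not (log2 4.34 ± 0.33, adjusted p = 1.43e-07). Scn3a and Scn9a, voltage-gated sodium channels, were at 8.01, 70.8 and 74.0 and at 16.02, 116 and 0 in delta cells. Scn3a was called over both classes, and without E17.5 its log2 folds were 2.16 (adjusted p = 0.153) and 2.24 (adjusted p = 0.117). For Scn9a the calls depended on E17.5, without which the log2 folds turned to -0.16 (adjusted p = 0.983) and -1.46 (adjusted p = 0.542). Trpm5, a cation channel of taste and beta cells, was lower than in beta cells, at 8.01, 0.746 and 0 against 28.6, 102 and 20.5, and Gria3 was lower than in alpha cells, at 0, 2.24 and 7.4 against 6.82, 49.9 and 7.13.

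Genes of the alpha lineage were low in delta cells. Of 13 alpha-lineage genes tested, 11 were lower than in alpha cells and none higher (2.69% and 2.82% over all genes tested), with a median log2 fold of -3.42. Irx1 and Irx2, Iroquois homeobox genes, held 1 and 3 UMIs in delta cells and stood at 121, 123 and 274 and 106, 127 and 316 CPM in alpha cells. Pou3f4 was at 0, 7.46 and 22.2 in delta and 128, 138 and 192 in alpha cells, and Slc38a5, an amino acid transporter, at 1042, 238 and 666 and 6335, 2289 and 5492 (log2 -2.999 ± 0.16, adjusted p = 8.30e-09). Auts2 went with alpha cells, at 152, 315 and 348 in delta, 159.6, 284 and 348 in alpha and 28.0, 26.7 and 88.2 in beta cells (log2 over beta 2.66 ± 0.25, adjusted p = 1.80e-06). Etv1 was intermediate, at 112, 123 and 133 in delta, 284, 564 and 390.4 in alpha and 21.4, 12.2 and 37.9 in beta cells, and was called in both directions with no overlap.

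Genes of the beta lineage were low relative to beta cells, and some were above their level in alpha cells. Of 15 beta-lineage genes tested, 10 were lower than in beta cells and none higher (median -2.91, beside 3.77% each way over all genes tested). Against alpha cells 4 were higher and 2 lower (median -0.05, beside 2.82% and 2.69%). Pdx1, needed for beta identity and known in delta cells, was at 208, 169 and 281 CPM in delta, 54.5, 29.01 and 92.5 in alpha and 420.4, 327 and 501 in beta cells. It was 3.98-fold higher than in alpha cells (adjusted p = 1.28e-05), and its log2 difference from beta cells was -0.995 ± 0.19 (adjusted p = 0.002), just short of 2-fold. Nkx6-1 was at 40.1, 11.9 and 66.6, 49.1, 29.01 and 114 and 273, 276 and 520.3, with delta and alpha levels overlapping and beta levels 14.4-fold higher than delta (adjusted p = 2.13e-07). Slc2a2, the glucose transporter GLUT2, was at 32.0, 8.2 and 0 in delta and 207, 373 and 175 in beta cells (log2 -5.10 ± 0.40, adjusted p = 1.90e-07). Mnx1 had 2 UMIs in delta cells and stood at 15.5, 10.9 and 79.5 in beta cells. G6pc2, the islet glucose-6-phosphatase subunit, and the zinc transporter Slc30a8 were lower than in both classes, at 8.01, 1.49 and 14.8 and 32.0, 35.8 and 0 against 220.3, 338 and 248 and 139, 729 and 106 in beta cells. Gng12, a G protein subunit, was intermediate at 200.3, 199 and 244, 88.6, 69.0 and 93.4 and 813, 776 and 707, called above alpha and below beta cells.

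Among 18 pan-endocrine transcription factors, 2 were higher and 3 lower than in alpha cells, and 3 were higher and 4 lower than in beta cells, where all genes gave 2.82% and 2.69%, and 3.77% each way. Neurod1 was at 40.1, 142 and 185 CPM in delta, 209, 316 and 284 in alpha and 266, 342 and 325 in beta cells, and Nkx2-2 at 88.1, 41.7 and 66.6, 145, 112 and 177 and 183, 130.5 and 246. Both were lower than in each class, with log2 folds from -1.69 to -1.13 (adjusted p = 0.0015 and 0.000118 for Neurod1, 0.00034 and 1.00e-05 for Nkx2-2). Isl1, a LIM homeobox gene of all islet cells, was at 1138, 1324 and 1369, 777, 762 and 990.3 and 515, 247 and 855, higher than in beta cells (log2 1.32 ± 0.22, adjusted p = 0.000766, and 0.84 (adjusted p = 0.000576) without E17.5). Runx1t1 was at 112, 209 and 185, 115, 153 and 179 and 38.1, 26.6 and 68.0, again above beta cells (log2 2.12 ± 0.25, adjusted p = 2.10e-05). Mlxipl, the glucose-responsive factor ChREBP, was intermediate at 32.0, 121 and 178, 19.1, 13.2 and 45.5 and 169, 244 and 319. Of 7 textbook delta genes tested, Hadh, a mitochondrial fatty acid enzyme, was at 689, 877 and 925 in delta and 124, 80.4 and 167 in alpha cells (log2 2.78 ± 0.22, adjusted p = 3.67e-07) but overlapped beta cells at 556, 848 and 830.1. Ghsr, the ghrelin receptor, Casr, Prg4, Lepr and Nkx6-3 were too low to be tested.

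**Figure D4:**
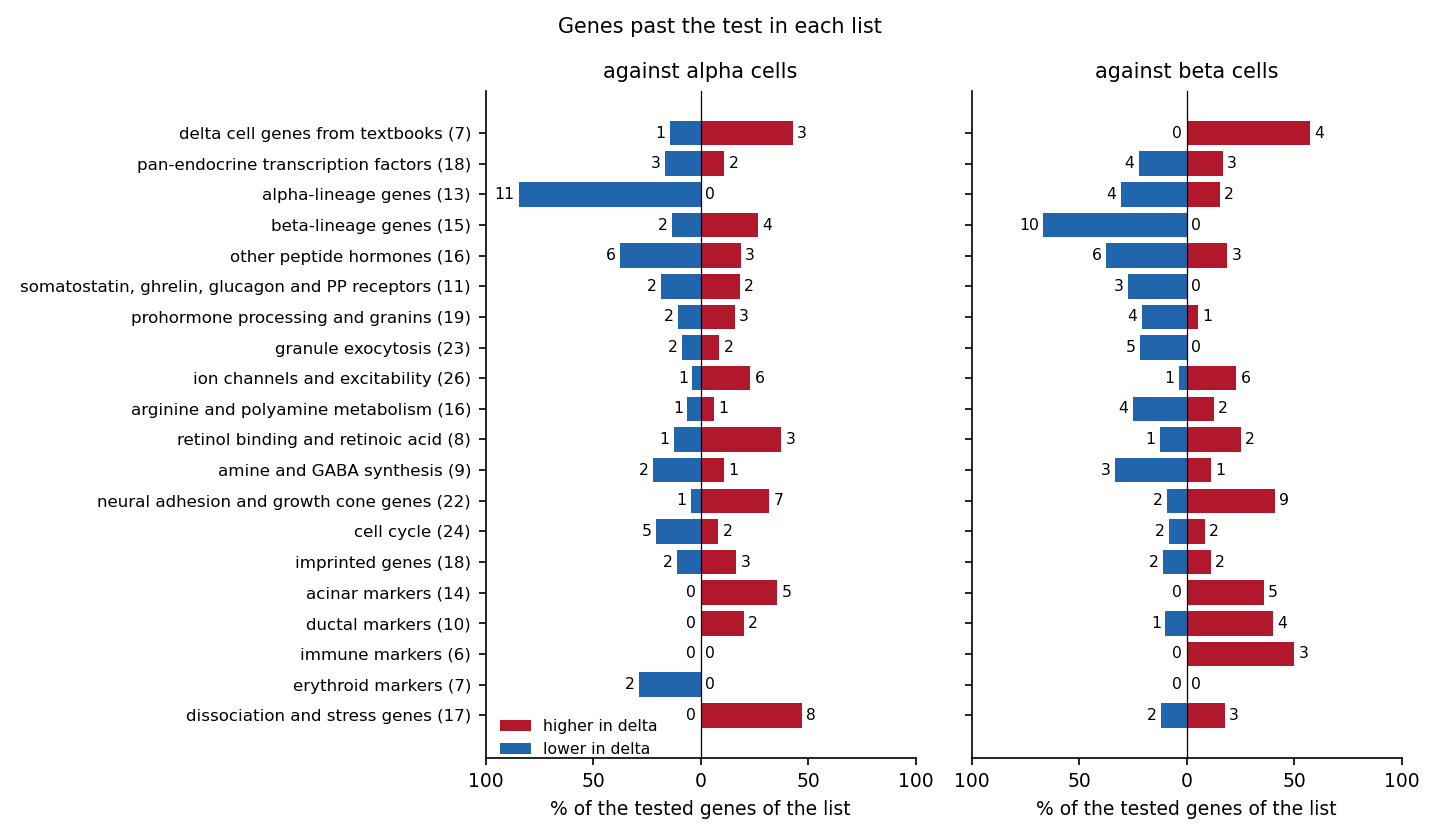
Genes past the test (adjusted p below 0.05 and at least 2-fold) as a percentage of the tested genes of each list, against alpha cells (left) and beta cells (right), with the number of genes at each bar and the number tested in brackets. Red, higher in delta cells; blue, lower. Alpha-lineage genes have 11 of 13 lower than in alpha cells (2.69% over all genes tested), and beta-lineage genes 10 of 15 lower than in beta cells (3.77%).

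Delta cells also carried transcripts of the pancreatic polypeptide family. Pyy, peptide YY, was at 39851, 56923 and 37099 CPM in delta, 19630, 17666 and 9224 in alpha and 10101, 1962 and 9482 in beta cells. It was 2.95-fold and 6.24-fold higher in delta cells with no overlap (adjusted p = 0.0176 and 0.000341). Ppy was at 2924, 3615 and 466, 342, 1866 and 222 and 279, 291 and 215 (log2 1.71 ± 0.39 and 2.65 ± 0.41, adjusted p = 0.00958 and 0.000333). Ppy made up at least 0.5% of UMIs in 4, 27 and 0 delta cells, 1, 25 and 3 alpha cells and 4, 8 and 3 beta cells. With such cells left out of all 3 classes, the log2 fold of Ppy was -0.19 (adjusted p = 0.831) over alpha and 0.97 (adjusted p = 0.0779) over beta cells. This is a description because Ppy chose the cells left out. Pyy was still called in that fit (1.49 (adjusted p = 0.0158) and 2.65 (adjusted p = 0.000153)). Ppy and Pyy lie next to each other on chromosome 11 (102099930-102101319 and 102106676-102107832, minus strand).

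Of 16 peptide hormone genes tested beside the gate genes, 3 were higher and 6 lower in each comparison. Among all genes tested, 2.82% were higher and 2.69% lower than in alpha cells, and 3.77% each way against beta cells. Pyy and Ppy were among the 3 higher peptide genes in both comparisons, and the other was Gip against alpha and Cck against beta cells. Npy, neuropeptide Y, stood at 0, 5.96 and 14.8 CPM in delta against 1977, 3295 and 1251 in beta cells (log2 -8.72 ± 0.47, adjusted p = 2.91e-09). Iapp, the amyloid peptide co-secreted with insulin, was at 3469, 19501 and 6673 in delta, 3023, 9231 and 7014 in alpha and 12744, 51042 and 25694 in beta cells (log2 over beta -1.81 ± 0.17, adjusted p = 1.42e-06). Delta and alpha levels of Iapp overlapped. Edn3, endothelin 3, held 3 UMIs in delta cells and was at 102, 139.6 and 117 in alpha cells. Gast, gastrin, was at 8.01, 4.47 and 614 in delta and 2192, 401 and 1876 in alpha cells, with the Fev-Cre delta value far above the other delta values. Ttr, transthyretin, was at 3846, 830.5 and 2123, 18183, 13576 and 11392 and 4906, 2886 and 6028, below both classes (log2 -2.92 ± 0.26 and -1.30 ± 0.25, adjusted p = 1.66e-06 and 0.00215, and -0.999 (adjusted p = 0.00281) over beta without E17.5). Gip was at 112, 53.7 and 281 in delta, 32.7, 6.98 and 67.3 in alpha and 1077, 73.6 and 404 in beta cells. Cck, cholecystokinin, was at 120.2, 28.3 and 636, 256, 59.9 and 447 and 81.0, 6.32 and 202, and was called over beta cells (log2 1.43 ± 0.32, adjusted p = 0.00705).

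Among processing enzymes and granins, 3 of 19 were higher and 2 lower than in alpha cells (2.82% and 2.69% over all genes tested). Against beta cells 1 was higher and 4 lower (3.77% each way over all genes tested). Pcsk1, the prohormone convertase PC1/3, was at 80.1, 172 and 274 CPM in delta, 51.8, 24.6 and 70.1 in alpha and 201, 513 and 283 in beta cells, and only the difference from alpha cells was called (log2 1.83 ± 0.42 and -1.09 ± 0.36, adjusted p = 0.0101 and 0.0601). Cpe, carboxypeptidase E, was at 897, 901 and 1110 and 2249, 2447 and 1721 in delta and alpha cells (log2 -1.17 ± 0.16, adjusted p = 0.00014). Chgb, chromogranin B, was at 873, 1159 and 1805 in delta and 2389, 2837 and 3240 in beta cells (log2 -1.28 ± 0.25, adjusted p = 0.0025). Mboat4, the acyltransferase that activates ghrelin, was at 176, 52.9 and 81.4 in delta, 16.4, 13.6 and 10.8 in alpha and 1.19, 1.02 and 1.45 in beta cells (log2 2.60 ± 0.32 and 5.87 ± 0.38, adjusted p = 4.93e-05 and 2.19e-08). Mboat4 is also 1 of 4 epsilon cell markers. Their sum was 0.0208, 0.00835 and 0.0104% of UMIs in delta cells and 0.0606, 0.0647 and 0.0824% in epsilon cells. Mboat4 alone was not compared with epsilon cells. Of 23 exocytosis genes, beside the same shares over all genes, 2 were higher and 2 lower than in alpha cells. Against beta cells 5 were lower and none higher. Sytl4, granuphilin, was at 0, 4.47 and 0 in delta, 0, 1.84 and 1.63 in alpha and 247, 317 and 232 in beta cells (log2 over beta -6.46 ± 0.34, adjusted p = 2.91e-09). Cadps, which primes dense-core granules, was below both classes at 0, 4.47 and 14.8, 27.3, 43.3 and 53.2 and 36.9, 34.6 and 69.7, with log2 -2.43 (adjusted p = 0.0951) over alpha cells without E17.5.

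Receptor genes differed among themselves. Ffar4, the fatty acid receptor GPR120 and a textbook delta gene, was at 288, 245 and 133 CPM in delta, 157, 174 and 100.1 in alpha and 129, 133 and 89.9 in beta cells. Its delta value was above both other classes within each library, and the fitted folds over the 3 libraries were less than 2-fold (log2 0.59 and 0.78, adjusted p = 0.0242 and 0.00225). Ffar1, the long-chain fatty acid receptor GPR40, held 2 UMIs in delta cells and was at 25.9, 73.1 and 37.7 CPM in alpha and 39.3, 144 and 98.3 in beta cells. The pooled alpha level was 38.6-fold (95% counting interval 10.6 to 319.7) and the pooled beta level 97.6-fold (95% counting interval 27.0 to 807) the delta level, and without E17.5, where delta cells held none, they were at least 3.14-fold (adjusted p = 0.0562) and 6.85-fold. Gpr119, a lipid-amide receptor, was at 0, 2.24 and 7.4 in delta, 31.4, 98.4 and 36.5 in alpha and 24.4, 40.4 and 38.8 in beta cells (adjusted p = 3.45e-05 and 0.000103), and its calls were lost without E17.5 (-3.09 (adjusted p = 0.109) and -3.10 (adjusted p = 0.0987)). Ffar3, a short-chain fatty acid receptor, had no UMI in delta cells and was at 7.74, 13.3 and 15.0 in beta cells, at least 6.96-fold higher there, and 1.097-fold without E17.5. Sstr2, a somatostatin receptor, held 2 UMIs in delta cells and was at 21.8, 42.6 and 13.5 in alpha cells, 18.96-fold (95% counting interval 5.18 to 158) the pooled delta level and 28.6-fold (95% counting interval 7.73 to 239) in E17.5 alone. Without E17.5 delta cells held none and the bound was 1.26-fold (adjusted p = 0.318). Adra2a, an adrenergic receptor, was intermediate at 8.01, 14.2 and 14.8, 1.36, 0.367 and 2.65 and 53.6, 65.9 and 128, called above alpha and below beta cells, the first not without E17.5 (2.52 (adjusted p = 0.259)). Ramp2, a receptor accessory protein, was at 104, 67.8 and 148 in delta and 23.2, 12.9 and 22.02 in alpha cells (log2 2.43 ± 0.23, adjusted p = 3.56e-06). Gpr119 and Ffar3 are outside the receptor list. Of its 11 genes tested, 2 were higher and 2 lower than in alpha cells (2.82% and 2.69% over all genes tested). None was higher and 3 were lower than in beta cells (3.77% each way over all genes tested).

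Other genes lower in delta cells than in both classes were near the detection floor. Slc14a2, a urea transporter, had no UMI in the 182 delta cells and was at 42.3, 32.7 and 73.8 CPM in alpha and 8.34, 3.57 and 22.6 in beta cells, at least 30.8-fold and at least 4.54-fold higher. In E17.5 alone these bounds were 14.6-fold and 1.60-fold, and without it 6.04-fold and 1.55-fold. Its call against beta cells was lost without E17.5 (adjusted p = 0.158). Melk, a mitotic kinase, and 1700048O20Rik, a transcript of unknown role, also had no UMI in delta cells, and were at least 3.38-fold and 3.89-fold higher in alpha cells. Without E17.5 those bounds were 0.523 and 0.646, which bound no difference. Melk calls were lost without the Fev-Cre library (adjusted p = 0.0578 and 0.0688). Kctd12b held 2 UMIs in delta cells and was at 15.0, 24.2 and 24.1 in alpha and 31.0, 30.1 and 39.9 in beta cells. Ankrd33b, Tcf19 and Skap1 held 1, 1 and 3 UMIs. Relative to alpha cells alone, Fgb, the fibrinogen beta chain, and Pde1a, a phosphodiesterase, had no delta UMI and stood at 12.3, 41.1 and 18.1 and 20.5, 33.8 and 22.4 in alpha cells, at least 13.4-fold and 13.9-fold higher (1.51-fold and 1.92-fold without E17.5). Both calls were lost without E17.5 (adjusted p = 0.281 and 0.141). Relative to beta cells alone, Bace2, a protease that cleaves amyloid precursors, had no delta UMI and was at 36.9, 144 and 83.6, at least 63.0-fold higher (5.92-fold without E17.5), and Tmem215 held 1 UMI against 50.6, 143 and 41.4 in beta cells.

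Arginine, retinol and amine genes were examined as 3 lists. Of 16 arginine and polyamine genes, Arg1 was higher and Slc7a2 lower than in alpha cells (2.82% and 2.69% over all genes). Arg1 and Sat1 were higher and Azin1, Srm, Slc7a2 and Oat lower than in beta cells (3.77% each way over all genes). Of these, Slc7a2, a cationic amino acid transporter, was at 16.02, 22.4 and 0 CPM against 85.9, 245 and 100.5 in alpha and 59.0, 104 and 62.5 in beta cells (adjusted p = 1.00e-06 and 1.62e-05). Srm, spermidine synthase, was at 136, 19.4 and 37.0 in delta and 179, 147 and 133 in beta cells (log2 -2.04 ± 0.36, adjusted p = 0.00103, -0.93 (adjusted p = 0.132) without E17.5). Of 8 retinoid genes, Rbp4, Rbp2 and Rara were higher and Ttr lower than in alpha cells. Rbp4 and Rara were higher and Ttr lower than in beta cells, beside the same shares over all genes. Rara, a retinoic acid receptor, was at 24.0, 19.4 and 22.2 in delta, 12.3, 6.98 and 10.4 in alpha and 10.1, 3.87 and 7.52 in beta cells, and its alpha call was lost when any library was left out (log2 0.96 (adjusted p = 0.625) without E17.5, 1.43 (adjusted p = 0.0647) without E14.5 and 1.38 (adjusted p = 0.149) without Fev-Cre). Rbp2 behaved likewise, at 40.1, 7.46 and 7.4 and 8.18, 2.2 and 3.67 in delta and alpha cells (2.25 (adjusted p = 0.26), 1.73 (adjusted p = 0.125) and 1.80 (adjusted p = 0.147)). Of 9 amine genes, beside the same shares over all genes, 1 was higher and 2 lower than in alpha cells, and 1 was higher and 3 lower than in beta cells. Th, tyrosine hydroxylase, which catalyses the first step of catecholamine synthesis, was at 104, 31.3 and 51.8 in delta, 2.73, 3.31 and 14.1 in alpha and 29.2, 13.6 and 39.0 in beta cells (log2 2.96 ± 0.38 and 1.11 ± 0.32, adjusted p = 9.12e-05 and 0.0323). Its beta call was lost without E17.5 (1.118 (adjusted p = 0.262)) or without E14.5 (0.85 (adjusted p = 0.106)). Ddc, the next enzyme of that pathway, was lower than in both at 32.0, 11.2 and 22.2, 42.3, 38.6 and 50.1 and 51.8, 76.2 and 30.7, again not without E17.5 (-0.98 (adjusted p = 0.459) and -0.61 (adjusted p = 0.692)), and Maob, a monoamine oxidase, was lower at 0, 6.71 and 7.4, 49.1, 41.1 and 44.2 and 106, 129 and 98.0 (adjusted p = 0.000138 and 3.01e-07).

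Of 24 cell cycle genes tested, 2 were higher and 5 lower than in alpha cells, and 2 were higher and 2 lower than in beta cells (medians -0.76 and -0.66, beside 2.82% higher and 2.69% lower over all genes against alpha and 3.77% each way against beta cells). Cdkn1a, the cell cycle inhibitor p21, was at 953, 240.1 and 599 CPM in delta, 161, 59.1 and 97.6 in alpha and 106, 37.4 and 76.6 in beta cells. Every delta value was above every other (log2 2.37 ± 0.15 and 2.81 ± 0.15, adjusted p = 4.13e-08 and 2.91e-09). Mki67 was at 0, 14.2 and 7.4 and 8.18, 36.7 and 23.0 in delta and alpha cells. The E17.5 delta sums of Ccnb1, Cenpf, Ube2c and Mki67 came for 60, 47.1, 59.3 and 42.1% from a single cell. Without the E17.5 library the log2 folds over alpha cells were -1.26 (adjusted p = 0.481), -1.68 (adjusted p = 0.421), -2.17 (adjusted p = 0.19) and -2.19 (adjusted p = 0.449). Of 18 imprinted genes, Mest was higher than both at 369, 167 and 348, 24.5, 42.2 and 113 and 38.7, 6.42 and 64.8, and Nnat, a neuronal proteolipid also high in beta cells, was intermediate at 457, 366 and 681, 32.7, 39.3 and 126 and 3975, 10375 and 4892. Dlk1, a Notch-family ligand, was above alpha cells at 1731, 1400 and 1206 against 682, 381 and 649.9. Grb10, an adaptor that restrains insulin and IGF signalling, was lower than both at 104, 64.1 and 81.4, 289, 378 and 351 and 209, 142 and 212 (log2 -2.17 ± 0.20 and -1.36 ± 0.20, adjusted p = 1.87e-06 and 0.000225).

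Markers of other cell types were examined in the same sums. Acinar markers made up 0.933, 0.596 and 0.0399% of UMIs in delta, 0.639, 0.22 and 0.074% in alpha and 0.58, 0.243 and 0.0765% in beta cells, with 14, 15 and 6 of 16 markers detected in delta cells. In the background cells defined below, acinar markers made up 0.898, 1.001 and 0.172%. Of 14 tested, 5 were higher than in alpha and 5 higher than in beta cells (2.82% and 3.77% over all genes tested). A single E17.5 cell gave 74.0, 85.8, 85.2, 86.3 and 66.4% of the E17.5 delta UMIs of Cela1, Cela2a, Prss2, Try5 and Cpb1. With likely doublets left out (cells with at least 2 mesenchymal, endothelial or immune marker UMIs or over 2.5 times the median UMIs of their class), Cela1 over beta cells was -0.12 (adjusted p = 0.94), and with well 2 alone Prss2 and Try5 over beta cells were -0.20 (adjusted p = 0.864) and -0.41 (adjusted p = 0.798). That doublet rule is broad and kept 13, 79 and 5 of the 19, 146 and 17 delta cells. Its effect cannot be told apart from that of fewer cells. Ductal markers made up 0.235, 0.175 and 0.127, 0.232, 0.16 and 0.0879 and 0.192, 0.138 and 0.0894% in the delta, alpha and beta sums. Of 10 tested, 2 were higher (Sox9 and Muc1) and none lower than in alpha cells, beside 2.82% and 2.69% of all genes. Against beta cells 4 were higher (Sox9, Spp1, Anxa2 and Muc1) and 1 lower (Krt19), beside 3.77% each way. Sox9 was higher than in both classes at 104, 145 and 111 CPM against 73.6, 23.9 and 30.8 in alpha and 54.8, 27.0 and 32.7 in beta cells (log2 1.94 ± 0.29 and 1.90 ± 0.28, adjusted p = 0.000321 and 0.000187, and 1.16 (adjusted p = 0.12) and 1.25 (adjusted p = 0.0762) without E17.5). Anxa2 over beta cells was -0.63 (adjusted p = 0.588) with likely doublets left out. Immune markers made up 0.0032, 0.0356 and 0.0777% of delta, 0.0325, 0.0223 and 0.00567% of alpha, 0.0119, 0.0208 and 0.00859% of beta and 0.23, 0.429 and 0.0573% of background UMIs. Of 6 tested, none was called against alpha cells and Tyrobp, Lyz2 and Laptm5 were higher than in beta cells (3.77% over all genes tested). In delta cells Tyrobp was at 0, 47.7 and 126 CPM, and 80.3% of the E17.5 delta UMIs of Lyz2 came from a single cell. Mesenchymal and endothelial markers stayed at or below 0.0215% in delta cells. Haemoglobin and other erythroid markers, common free RNA, made up 0.0729, 3.69 and 0% of delta UMIs, beside 2.38, 4.04 and 0.000387% in alpha cells and 1.97, 4.53 and 0.0455% in background cells (cells with no Chga UMI and at least 10 UMIs of the mesenchymal, endothelial and immune markers), and Hba-a1 and Hbb-bs were called lower than in alpha cells but turned to 0.20 and 0.095 (log2) with equal cell numbers. The part of these cells and of free RNA in other results was not tested.

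Immediate-early genes were among those higher in delta than in alpha cells. Of 17 dissociation and stress genes tested, beside 2.82% of all genes, 8 were higher than in alpha cells (Fos, Fosb, Jun, Egr1, Atf3, Ier2, Zfp36 and Nr4a1) and none lower. Against beta cells 3 were higher and 2 lower, beside 3.77% of all genes each way. The heat-shock gene Hspa8 was at 1715, 1805 and 3728 CPM in delta and 2628, 2670.3 and 4095 in alpha cells (log2 -0.45, adjusted p = 0.0333), less than 2-fold apart. The list summed to 0.598, 0.64 and 0.876% of UMIs in delta, 0.55, 0.48 and 0.586% in alpha and 0.662, 0.744 and 0.632% in beta cells, so the delta and beta sums overlapped. Fos was at 729, 958 and 1184 CPM in delta, 385, 327 and 165 in alpha and 611, 779.9 and 274 in beta cells (log2 over alpha 1.80 ± 0.28, adjusted p = 0.000541). Atf3 was at 64.1, 79.8 and 88.8, 40.9, 8.08 and 10.4 and 28.0, 25.9 and 22.3, and without E17.5 it was 2.001 (adjusted p = 0.0822) over alpha and 1.505 (adjusted p = 0.182) over beta cells. Zfp36 turned to -0.13 (adjusted p = 0.933) over alpha cells with likely doublets left out. Hspa5, a chaperone of the endoplasmic reticulum, was at 1314, 1057 and 1176 in delta and 2397, 3338 and 2092 in beta cells (log2 -1.26 ± 0.18, adjusted p = 0.000201). Cell dissociation, which lasted longer for E17.5 than for E14.5 pancreata, is known to induce genes of this list, and its part was not tested.

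A v1 library of E17.5 pancreas that the rule did not use held 30 delta, 6 alpha and 61 beta cells by the same thresholds. Among genes called against beta cells with at least 10 UMIs in it, 127 of 131 higher genes were higher there too (96.9%) and 250 of 257 lower genes were lower (97.3%), where 40.8% of all tested genes with 10 UMIs were higher. Against its 6 alpha cells the counts were 77 of 97 (79.4%) and 39 of 48 (81.3%), beside 37.8% higher over all tested genes. In that library Hhex was at 1985 CPM in delta, 0 in alpha and 11.9 in beta cells, and Rbp4 at 33950, 9380 and 3939. This is 1 library, so no test applies.

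Delta cells of E17.5 were set beside those of both E14.5 libraries. Each chemistry has a single E17.5 pool, so no test was made, and v2 libraries were compared. In this comparison a gene was counted when it lay at least 2-fold from both E14.5 libraries in the same direction, with 1 UMI added to each sum and at least 20 UMIs over the 3 sums. Of 7453 genes, 513 (6.88%) were counted, 135 higher (1.81%) and 378 lower (5.07%) at E17.5. The split depends on how many UMIs are added to small E14.5 sums, giving 203 and 293 with 0.5 and 35 and 1057 with 3. With delta cells of at least 2% Sst it was 54 higher and 634 lower of 6356 genes. Stage cannot be told apart from litter, day and, for the Fev-Cre library, strain and sort. Of the 135 higher genes, 64 had no UMI in either E14.5 sum and 48 were at or below their level in background cells at E17.5.

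The widest ratios belonged to genes known from other cells. Hbb-bt, Hba-a1 and Hbb-bs, Tpsb2 of mast cells, Cd74, H2-Ab1 and H2-Aa of antigen-presenting cells, Cela3b and Rnase1 of acinar cells and the heat-shock gene Hspa1a were the 10 highest, and each was higher still in background cells of E17.5, which include immune cells. Cd74, for example, was at 0, 7.4 and 219.9 CPM in delta cells of the E14.5, Fev-Cre and E17.5 libraries and at 1202 in background cells at E17.5. Ppp1r17 differed from these, at 16.02, 22.2 and 259 in delta cells and 0 in background cells at E17.5, with alpha cells at 0, 0.408 and 0 and beta cells at 0, 1.74 and 3.67. Of 16 prohormone processing and granin genes counted, Scg2, Scg5, Pcsk2 and Pcsk1n were higher at E17.5 and none lower (1.81% of all genes counted were higher), and the other 12 were not past the limits. Scg2, secretogranin 2, was at 433, 518 and 1658 in delta cells, Pcsk2, the convertase PC2, at 841, 1110 and 2602, and Pcsk1n at 569, 555 and 1801. Scg2 passed the same limits in alpha and beta cells. Pcsk2 and Pcsk1n were also higher at E17.5 there, but not past the limits against both E14.5 libraries. Pcsk2 was at 910, 1533 and 2698 in alpha and 841, 1597 and 2330 in beta cells. For Pcsk1n the values were 1793, 1253 and 3308 in alpha and 1068, 904 and 1829 in beta cells. Iapp was at 3469, 6673 and 19501, against 12744, 25694 and 51042 in beta cells. The v1 E17.5 pool, with 30 delta cells and another chemistry, had Ppp1r17 at 269, Scg2 at 934, Pcsk2 at 2147, Pcsk1n at 2120 and Iapp at 16858 CPM, and Cd74 at 0. A v1 E14.5 sample with 5 delta cells had Scg2 at 549 (9 UMIs), Pcsk2 at 1220 (20 UMIs), Pcsk1n at 671 (11 UMIs) and Iapp at 10673 CPM (175 UMIs). Scn9a was at 16.02, 0 and 116 in delta cells and Ly6h at 64.1, 22.2 and 248, and Ly6h was lower at E17.5 in alpha and beta cells, at 20.5, 29.6 and 6.98 and 31.6, 57.3 and 13.6.

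**Figure D5:**
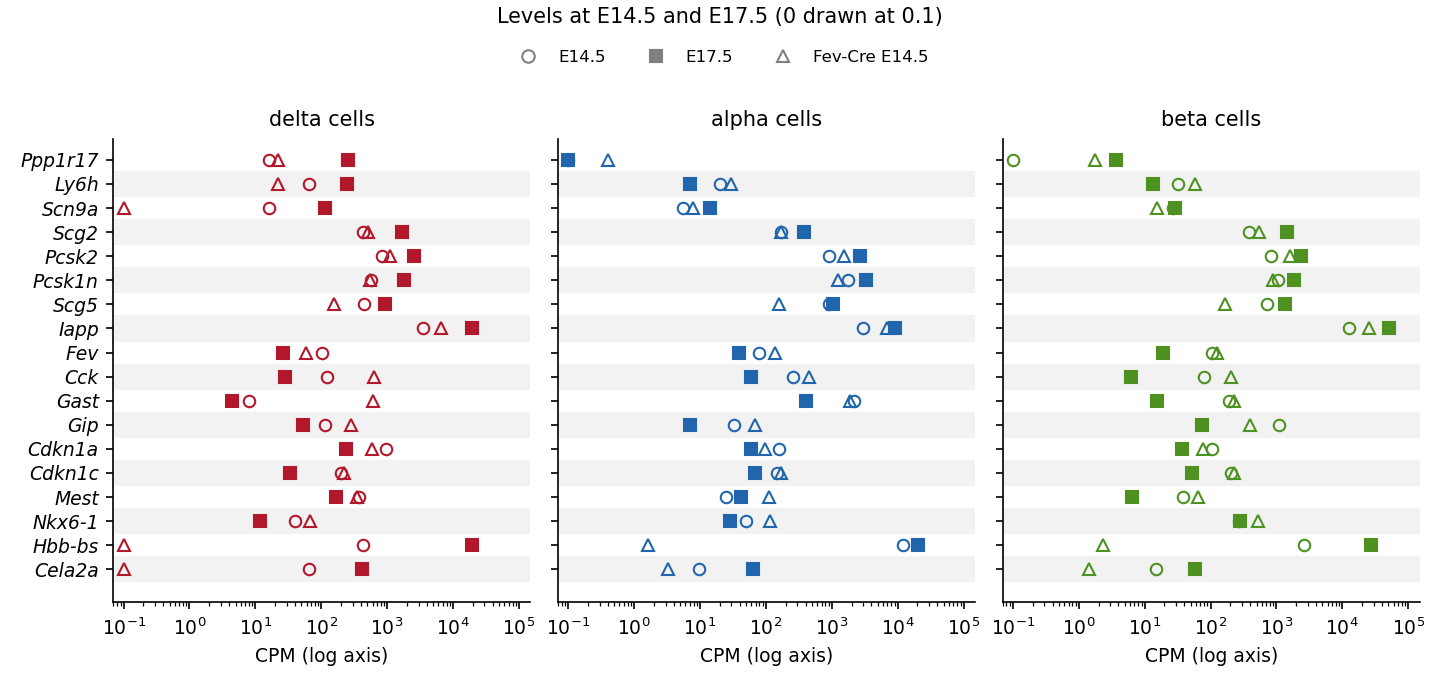
CPM (log axis, values of 0 drawn at 0.1) of 18 genes in delta, alpha and beta cells (panels) of the E14.5 (circle), E17.5 (square) and Fev-Cre E14.5 (triangle) libraries. Ppp1r17 at E17.5 stands at 259 in delta cells and at or near 0 in alpha cells, while Hbb-bs is high at E17.5 in all 3 classes.

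Of 15 pan-endocrine transcription factors, Fev was lower at E17.5 and none higher, beside 5.07% lower over all genes counted. Fev, the ETS factor of late endocrine progenitors, was at 104, 59.2 and 26.1 CPM in delta cells, in the order E14.5, Fev-Cre and E17.5, and passed the limits in alpha and beta cells too. Neurog3, the factor of endocrine progenitors, was at 24.0, 51.8 and 69.3 in delta cells and was not past the limits. Among 9 peptide hormone genes counted, 4 were lower and 1 higher, beside 5.07% and 1.81% over all genes counted. Cck was at 120.2, 636 and 28.3, Gip at 112, 281 and 53.7 and Gast at 8.01, 614 and 4.47 (1, 83 and 6 UMIs), and all 3 were counted lower at E17.5 in alpha and beta cells as well. In delta cells the Gast values of E14.5 and E17.5 lie less than 2-fold apart. Gast passed the limit against E14.5 only through the UMI added to each sum. Nkx6-1 was at 40.1, 66.6 and 11.9 in delta cells, against 273, 520.3 and 276 in beta cells. Cdkn1c, the inhibitor p57, and H19, both imprinted, were at 200.3, 222 and 33.5 and 224, 155 and 26.1. Cdkn1a was at 953, 599 and 240.1 and Ttr at 3846, 2123 and 830.5. Of the 10 widest ratios in this direction, Mfap4, Mia, Dapk3, Tmsb15l, Gfra3, Yrdc, Suds3 and Aldh1b1 joined Cdkn1c and H19, and Gfra3, a receptor of artemin, was at 88.1, 88.8 and 14.9. In the v1 E17.5 delta cells Fev was at 80.8 CPM (9 UMIs), Nkx6-1 at 71.9 (8 UMIs) and Cdkn1c at 153 (17 UMIs), each above its v2 E17.5 value, and Fev and Nkx6-1 were not below both E14.5 libraries. Cck was at 17.96 (2 UMIs), H19 at 8.98 (1 UMI), Cdkn1a at 126 (14 UMIs) and Ttr at 1006 (112 UMIs) there, below both E14.5 libraries. Of the 378 genes, 58 were also counted lower in alpha cells, 70 in beta cells and 41 in both. Of the 135 genes higher at E17.5, 28 were also counted higher in alpha cells, 40 in beta cells and 22 in both.

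Delta cells were also split at the median Sst content of their library, into groups of 10 and 9, 73 and 73, and 9 and 8 cells above and below it. Sst chose the cells, so the split is a description, and the small groups limit what can pass. Of 4362 genes with at least 50 UMIs, 2 lay at least 2-fold higher in the Sst-high cells of all 3 libraries (0.0459%) and none lower, as a description with no test. Igfbp7, an IGF-binding protein, was at 134 against 62.4, 184 against 90.9, 137 against 16.03 CPM in Sst-high against Sst-low cells. Sez6l, a neuronal membrane protein, was at 67.1 against 0, 87.9 against 38.4, 55.0 against 16.03. These values rest on few UMIs, for Igfbp7 on 6 against 5, 117 against 64 and 10 against 1, and for Sez6l on 3 against 0, 56 against 27 and 4 against 1. The Sst-high and Sst-low cells had median UMIs of 4636 and 5333, 9362 and 8403, and 7068 and 6816.

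The motifs shown at the start were counted over the called genes with a matched RefSeq window. The CRE was in 4 of 104 genes higher than both classes (3.85%) and 4 of 89 lower than both (4.49%), beside 3.42% of 8007 tested genes with a window. TAAT was in 59 of 104 (56.7%) and 45 of 89 (50.6%), beside 43.0% of the tested genes.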

How the data were processed

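Single cells of mouse pancreas were measured from E12.5 to E17.5. The deposited matrices hold UMI counts per gene and cell, which the authors made with Cell Ranger 2.1 (v2 chemistry) or 1.1 (v1 chemistry) on mm10, per the submitters' processing notes and the study's methods, with eGFP and tdTomato added to the reference of the reporter matrix. They were not normalized. The Fev-Cre cells were also deposited as an alignment without the reporters, which was not used here.

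Cells with at least 200 genes were classed by rule, and raw counts were summed per library and class, the E17.5 wells together. CPM are UMI counts scaled to 1000000 per sum and leave out the 7 gate genes, except the reporter CPM, whose totals hold all genes. Sums of delta, alpha and beta cells were fitted with edgeR 4.0.16 (R 4.3.3) in 3 libraries, with TMM scaling, filterByExpr and quasi-likelihood tests, library being a block since alpha, beta and delta cells shared a suspension. Deviations from class means correlated at 0.301 to 0.739 within libraries and at -0.453 to -0.0974 between them. Each class mean was taken over 3 libraries, so positive values within libraries by themselves force negative ones between them on average. Adjusted p-values are Benjamini-Hochberg over 10376 genes. Values after ± are approximate standard errors, computed back from the test as the absolute log2 fold divided by the square root of its F statistic. With the library block, p measures how class differences varied across the 3 pools, which also differ in stage, strain and sort. Part of that spread is estimated over all genes together. The common biological coefficient of variation was 0.140. Total UMIs per library were 83112158 at E14.5, 102656012 and 94137230 in the E17.5 wells and 77996305 in the Fev-Cre library. Intervals of shares are exact Clopper-Pearson and cover counting error only, at a 95% level.

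On simulated counts of 10188 genes, the delta-against-alpha fit recovered 18.8% of 2-fold, 85.4% of 4-fold and 94% of 8-fold changes, and the delta-against-beta fit 18.8%, 79.2% and 96%. Promoter windows are those of RefSeq on GRCm38.p6. The cells, gene lists and tests were chosen with earlier results of these data known. Genes named are the members of those lists, the 10 with the largest fold in each direction per comparison, the 15 (higher) and 10 (lower) with the largest smaller fold against both classes, all changed the same way in 3 libraries, and the 10 with the largest ratio each way by stage. Some list members are not reported here. Igfbp7 and Sez6l were named after their values were seen. DESeq2 1.42.0 was an alternative, as were other thresholds, doublet filters, single wells, thinning and leaving out each library. Adding the v1 E17.5 library, and a lower Sst threshold for the reporter share, were alternatives chosen after seeing the data. Scrublet was run in scanpy 1.11.5.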

Additional observations from a re-analysis of the deposited data

Results flagged for a closer look

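Scn9a, a voltage-gated sodium channel gene, was higher in delta than in beta cells at E17.5 but not in either E14.5 library. The log2 difference, delta minus beta, was 1.994 at E17.5, -0.4359 at E14.5 and -2.065 in the Fev-Cre E14.5 library, from 440, 47 and 53 UMIs over both classes. Delta cells held 155, 2 and 0 of those UMIs. The last value is therefore set by a small count added to each sum, and too few delta UMIs were seen at E14.5 to show a lower level. The difference between libraries was not tested, since each holds a single delta sum, and stage cannot be told apart from litter and day.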

How the results depend on the processing

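Leaving out each library in turn gave 189 to 699 genes called against alpha cells, 214 to 998 against beta cells, 45 to 201 higher than both and 33 to 151 lower than both, the lowest counts all without E17.5. The fit without the replicate block (pairing of classes within a library) called 122, 188, 33 and 18, and equal cell numbers called 151, 197, 31 and 28, where fewer cells enter and fewer genes pass the filter. With no filter on low counts 880 and 1209 genes were called against alpha and beta cells and 226 were lower than both. Well 2 of E17.5 alone gave 90 higher and 79 lower than both. Leaving out likely doublets, which kept 13, 79 and 5 delta cells, gave 87 higher. DESeq2 gave 68 lower and a fit of only the classes compared 72 lower. For these, the cause was not tested. By stage, 3 UMIs added gave 1092 genes, well 2 alone 314 and equal cells 242. With Sst of at least 2% the delta share was 9.61% at E17.5 and 0.507% in the Fev-Cre library, and with 0.2% it was 3.07% there, since the threshold sets the class. The median over all genes moved by over 0.1 with no filter (-0.21 in each comparison).

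Single genes turned sign as follows, on the log2 scale. With equal cells, Hba-a1 was 0.20 and Hbb-bs 0.095 over alpha cells. With Ppy cells left out, Ppy was -0.19 over alpha cells. Without E17.5, Scn9a was -0.16 over alpha and -1.46 over beta cells, Stmn3 -0.58 and -0.39, and Ly6h -0.14 over beta cells. With likely doublets left out, Zfp36 was -0.13 over alpha cells, and Anxa2 -0.63 and Cela1 -0.12 over beta cells. With well 2 alone, Lyz2 was -0.44, Prss2 -0.20 and Try5 -0.41 over beta cells. Of 261 named gene comparisons, 89 kept their direction and side of the threshold under every alternative that gave a value. Without the replicate block 84 of 132 calls against alpha cells and 68 of 129 against beta cells were lost, none turning sign, so the named calls rest on comparing classes within a library. The E14.5 and Fev-Cre sums hold 19 and 17 delta cells, which limits what can be seen of low genes there.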
